A study of Homo sapiens with 9 samples.

Results

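The 41 genes described here act in G2 and mitosis, and were taken as a listed set of gene symbols from the 23619 symbols with a value in all 9 samples. The list holds cyclins, mitotic kinases, checkpoint proteins, kinetochore proteins, motors, cytokinesis proteins and the transcription factors FOXM1 and MYBL2. Its rule names genes and uses no threshold on a measured value, but the genes were chosen with earlier results of these data known. Its values were the log2 CPM (read counts scaled to a common library size) of each clone minus the mean of the parental samples, gene by gene and averaged. All 41 genes passed the filter on low counts, and the lowest value of any of them in any sample was 6.26 CPM, for HMMR.

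Many genes of this set are transcribed in G2 and early mitosis and are silent or low in G0 and G1. In proliferating cells their promoters are occupied by B-Myb (MYBL2) and FOXM1 together with the MuvB complex, and in resting cells by the DREAM complex, which forms on MuvB and represses them. Because they follow the cell cycle, their RNA level in a culture varies with the share of cells in G2 and mitosis, and in bulk RNA fewer such cells and less of these RNAs per cell cannot be told apart.

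The samples were 2 parental samples of RKO, a human colorectal cancer cell line, 2 clones labelled DIP2C-/- (E3 and C10) and 5 clones labelled DIP2C+/- (A6-C9, A9-A12, F6-A7, G1-A5 and H9-A4). Exon 9 of DIP2C, a gene of the disco-interacting protein 2 family, had been targeted in the clones with a recombinant adeno-associated virus, and every culture was grown for 48 h and sequenced as 1 library. Each clone grew from a single cell, both DIP2C-/- clones came from further targeting of 1 DIP2C+/- clone, and no clone that went through targeting with both DIP2C alleles intact was part of the design, so clonal differences and the DIP2C genotype cannot be told apart. The comparisons asked whether genes of mitosis were expressed at another level when 1 or both DIP2C alleles were lost.

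The deletion takes out part of 1 exon, so reads of the other exons still count towards DIP2C. DIP2C itself was at 61.0 and 70.9 CPM in the parental samples, 17.4 and 22.8 CPM in E3 and C10, and 33.6 to 56.3 CPM in the DIP2C+/- clones, with H9-A4 the highest of these. Its log2 fold change was -1.71 ± 0.25 (SE) in DIP2C-/- and -0.60 ± 0.20 in DIP2C+/- cells, and neither passed edgeR's quasi-likelihood test after Benjamini-Hochberg adjustment over 15532 genes (adjusted p = 0.0998 and 0.386). Clone H9-A4 stood apart from the other DIP2C+/- clones, with a chi-square per degree of freedom of 117 to 137 against each of them, where pairs of the other 4 gave 24.6 to 63.3. The totals of the deposited counts were 14772593 to 21486483 per sample. Among colorectal epithelial markers KRT18 was at 127 to 292 CPM, CDX2 at 14.9 to 19.98 CPM and KRT8 at 7.05 to 21.5 CPM. EPCAM was at 3.81 CPM in H9-A4 and at 0.05 to 1.05 CPM in the other samples. KRT19, KRT20, CDX1, VIL1, CDH1, LGR5 and GUCY2C were under 1 CPM in every sample. The CPM of these and of the leukocyte markers were scaled by library total only. The 3 leukocyte markers summed to 87.0 and 88.9 CPM in the parental samples, 17.3 CPM in H9-A4 and 462 to 670 CPM in the other 6 clones, nearly all of it CD68, and the defining markers PTPRC and CD3E did not exceed 0.84 and 0.31 CPM.

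The mitosis genes were, for the most part, lower in the knockout clones than in parental RKO, and by a modest amount. Averaged over the 41 genes, the difference in log2 CPM from the parental mean was -0.32 in E3 and -0.36 in C10 among DIP2C-/- clones, and -0.50 in both F6-A7 and A9-A12, -0.45 in A6-C9, -0.37 in G1-A5 and -0.16 in H9-A4 among DIP2C+/- clones. The parental samples lay at 0.0075 and -0.0075 around their own mean, and the median over all tested genes was between -0.0063 and 0.020 in every clone. All 7 clones were thus under both parental samples, and H9-A4 was the closest to them. The group means were -0.34 ± 0.03 (SD, n = 2) for DIP2C-/- and -0.40 ± 0.14 (SD, n = 5) for DIP2C+/- clones, so the genotypes overlapped through H9-A4. Without H9-A4 the DIP2C+/- mean was -0.46 ± 0.06 (SD, n = 4), and by the mean each of these 4 clones was below both DIP2C-/- clones. By the median over the 41 genes this did not hold, since G1-A5 (-0.335) was above E3 (-0.342) and C10 (-0.362).

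**Figure D1:**
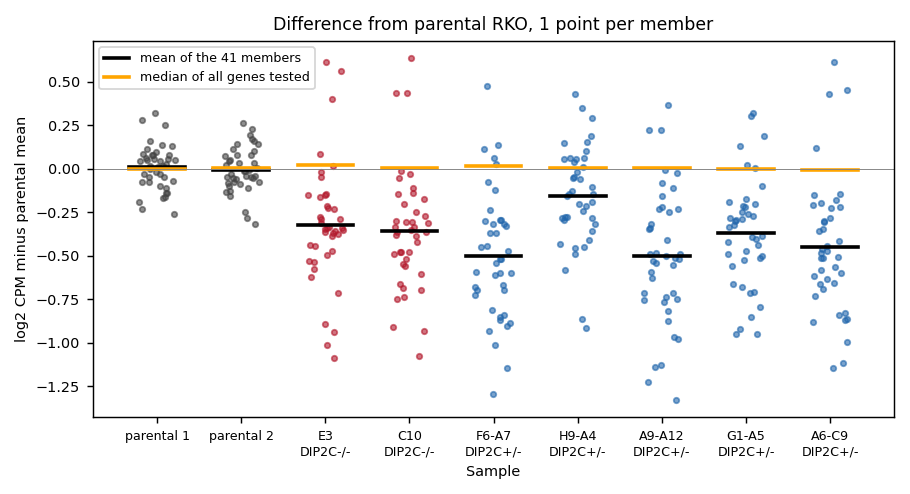
Difference in log2 CPM from the parental mean (vertical axis) for each of the 41 genes (points) in each of the 9 samples (horizontal axis), with the mean of the 41 genes (black line) and the median of all 15532 tested genes (orange line). The black lines of the 7 clones lie between -0.16 in H9-A4 and -0.50, whereas the orange lines stay near 0.

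The spread among the genes within a clone was wide, with SDs over genes of 0.29 to 0.39 on the log2 scale. The parental samples are mirror images around their own mean by construction, so their SD of 0.13 is no equal measure. Under the parental mean lay 38 of the 41 genes in C10 and A9-A12, 37 in A6-C9, 36 in E3 and F6-A7 and 35 in G1-A5, but 28 in H9-A4. Among all tested genes the share under the parental mean was 49.6% in C10, 49.5% in A9-A12, 50.5% in A6-C9, 48.4% in E3, 48.7% in F6-A7, 50.2% in G1-A5 and 49.7% in H9-A4. In H9-A4, 23 of the genes were below both parental samples and 8 above both. Each of the other clones had 33 to 36 below both and 3 or 4 above both. The shares of all tested genes were not counted for single clones here, so these counts have no background beside them. Summed over the 41 genes, the level was 7402 and 7507 CPM in the parental samples, 6103 and 6122 CPM in E3 and C10, and 5457 to 6825 CPM in the DIP2C+/- clones, with H9-A4 again the highest.

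**Figure D2:**
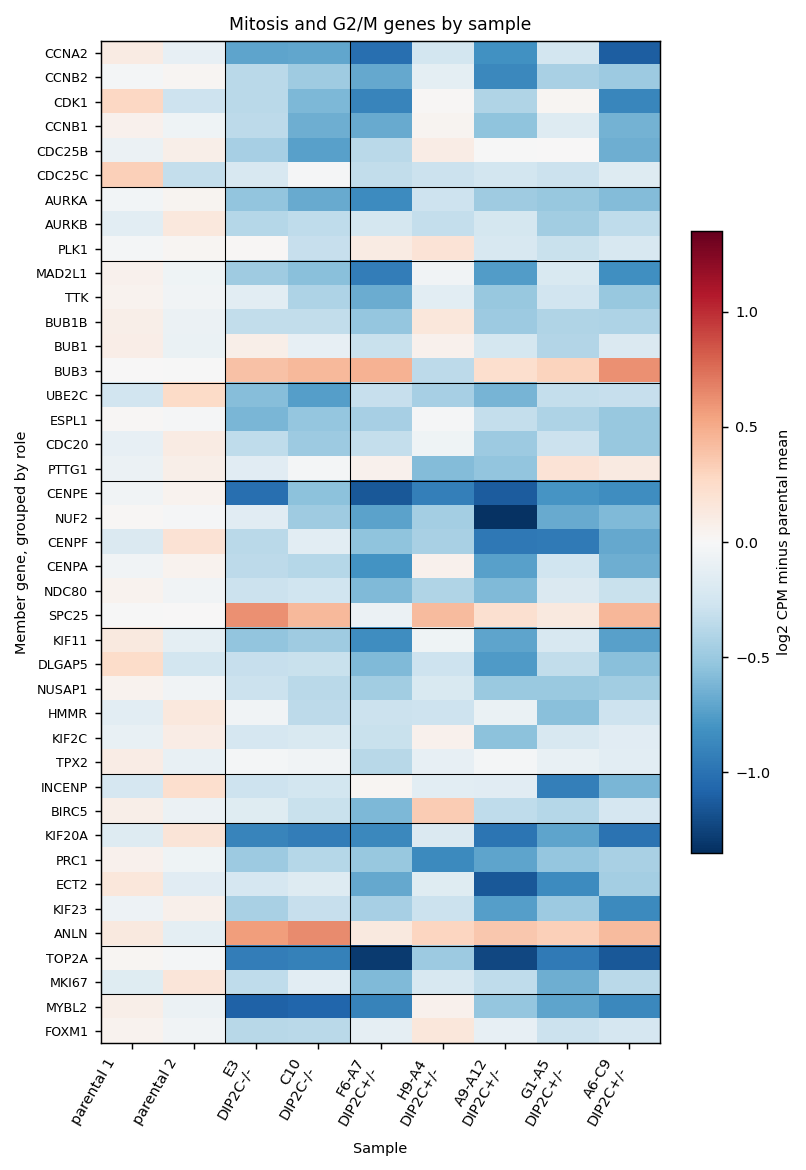
Difference in log2 CPM from the parental mean (colour, blue lower and red higher) for the 41 genes (rows, grouped by role) in the 9 samples (columns, grouped by genotype). Most cells of the knockout clones are blue, the rows of ANLN, SPC25 and BUB3 are mostly red, and the column of H9-A4 is the palest of the clones.

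A stricter description counts the genes for which every clone lay below both parental samples. This held for 17 of the 41 genes, against 5.54% of all tested genes, and for 5.87% of the 9955 genes with a mean level at or above that of the lowest of the 41. The 17 were CCNA2, CCNB2, AURKA, AURKB, TTK, UBE2C, ESPL1, CENPE, NDC80, NUF2, NUSAP1, DLGAP5, KIF20A, KIF23, PRC1, ECT2 and TOP2A. Only ANLN had every clone above both parental samples, against 5.41% of all tested genes and 6.35% of those 9955 genes. Without H9-A4 the count below was 27 of 41, against 11.5% of all genes, and the count above was 2, against 12.4%. By genotype, both DIP2C-/- clones were below both parental samples for 30 genes (background 26.3%) and all 5 DIP2C+/- clones for 19 genes (background 7.11%), and above them for 3 genes (26.9%) and 1 gene (7.15%).

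Promoter sequences are printed for 6 of the genes, namely TOP2A, CENPE and KIF20A with the lowest fold changes, PRC1, PLK1 and ANLN. PRC1 (-0.56) was not the next in order, since MYBL2 (-0.70), CCNA2 (-0.66), NUF2 (-0.61) and CENPF (-0.58) were lower and are not printed. PLK1 had the fold change smallest in size and ANLN the highest. Promoters of G2 and mitosis genes often hold a CHR element, bound by MuvB, and CCAAT boxes, bound by NF-Y. The windows of 300 bases come from the RefSeq promoter table (GRCh38.p14) and are written 5′ to 3′ on the strand of the gene. They run from 250 bases before to 50 after the RefSeq start. That start can differ from the start in the gene annotation used below. The windows of KIF20A, PRC1 and PLK1 lie wholly inside the gene as annotated there. Each had 1 exact match on its chromosome in GRCh37, whose coordinates are given. Capitals mark the CHR element, TTTGAA or TTCGAA, and the CCAAT box, CCAAT, on either strand (TTCAAA and ATTGG on the reverse). Matches may share end letters.
CENPE, chr4:104119451-104119750, minus strand: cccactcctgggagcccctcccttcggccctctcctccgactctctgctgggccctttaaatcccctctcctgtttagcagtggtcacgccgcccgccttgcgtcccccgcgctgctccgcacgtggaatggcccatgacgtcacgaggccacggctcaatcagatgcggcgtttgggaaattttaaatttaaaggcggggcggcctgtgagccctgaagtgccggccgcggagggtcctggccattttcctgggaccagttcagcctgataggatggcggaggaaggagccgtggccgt
TOP2A, chr17:38574099-38574398, minus strand: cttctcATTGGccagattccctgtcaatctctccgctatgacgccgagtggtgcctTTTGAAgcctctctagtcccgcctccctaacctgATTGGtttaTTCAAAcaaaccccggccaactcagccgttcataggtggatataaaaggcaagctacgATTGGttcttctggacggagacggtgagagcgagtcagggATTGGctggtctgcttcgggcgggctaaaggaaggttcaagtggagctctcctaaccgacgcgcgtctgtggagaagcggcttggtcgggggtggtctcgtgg
KIF20A, chr5:137514551-137514850, plus strand: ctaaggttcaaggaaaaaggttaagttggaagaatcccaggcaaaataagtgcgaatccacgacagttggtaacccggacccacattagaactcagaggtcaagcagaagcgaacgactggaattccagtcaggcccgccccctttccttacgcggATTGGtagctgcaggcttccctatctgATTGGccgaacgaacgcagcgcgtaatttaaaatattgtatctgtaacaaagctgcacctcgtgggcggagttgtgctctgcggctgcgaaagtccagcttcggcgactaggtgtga
PRC1, chr15:91537716-91538015, minus strand: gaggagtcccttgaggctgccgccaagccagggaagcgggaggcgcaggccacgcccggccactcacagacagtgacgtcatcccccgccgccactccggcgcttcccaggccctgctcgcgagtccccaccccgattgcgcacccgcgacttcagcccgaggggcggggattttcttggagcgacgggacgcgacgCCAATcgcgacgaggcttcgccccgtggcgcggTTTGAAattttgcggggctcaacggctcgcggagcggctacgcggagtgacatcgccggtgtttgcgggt
PLK1, chr16:23689960-23690259, plus strand: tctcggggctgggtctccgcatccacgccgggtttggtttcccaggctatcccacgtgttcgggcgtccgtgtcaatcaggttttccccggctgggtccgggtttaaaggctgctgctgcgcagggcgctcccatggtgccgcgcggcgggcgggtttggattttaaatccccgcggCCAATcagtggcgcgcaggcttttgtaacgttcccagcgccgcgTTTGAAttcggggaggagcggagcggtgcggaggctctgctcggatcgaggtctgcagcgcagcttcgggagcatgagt
ANLN, chr7:36429221-36429520, plus strand: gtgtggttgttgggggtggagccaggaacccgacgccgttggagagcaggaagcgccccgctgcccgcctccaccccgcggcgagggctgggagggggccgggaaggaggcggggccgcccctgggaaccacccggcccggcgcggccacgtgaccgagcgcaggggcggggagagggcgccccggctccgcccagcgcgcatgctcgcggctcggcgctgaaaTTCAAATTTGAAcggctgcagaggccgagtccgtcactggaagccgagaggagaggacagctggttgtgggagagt

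TOP2A, PRC1 and PLK1 held both motifs in this window, KIF20A held CCAAT boxes and no CHR element, ANLN held CHR elements and no CCAAT box, and CENPE held neither. In PRC1 the first base of the CHR element was at -20 and that of the CCAAT box at -53 relative to the RefSeq start. In PLK1 they were at -29 and -73. Of the 41 genes, 34 had an entry in the table and 7 had none (TTK, FOXM1, UBE2C, BUB3, BIRC5, TPX2 and AURKA). A CHR element was found for 26 of the 34 (76.5%), against 19.5% of all 27305 genes of the table, a CCAAT box for 27 (79.4% against 39.7%), and both for 22 (64.7% against 9.02%). The median log2 fold change of all clones against parental was -0.41 for the 22 genes with both motifs, -0.35 for the 4 with a CHR element alone, -0.41 for the 5 with a CCAAT box alone and -0.70 for the 3 with neither (CENPE, KIF2C and MYBL2). The fold changes of the 22 ran from -0.97 to 0.33, so genes that share both motifs differed widely. A match of letters is a description of the window and does not show that a factor binds there.

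Tested gene by gene with all 9 samples in the fit, few single genes passed. In the average of the 7 clones against parental, CENPE fell (log2 fold change -0.90 ± 0.15 SE, adjusted p = 0.0453, edgeR quasi-likelihood test), 1 of the 41, against 0.174% of all tested genes that fell and 0.00644% that rose. The CENPE call was lost without parental sample 1 (adjusted p = 0.325), parental sample 2 (0.733), E3 (0.0805), F6-A7 (0.0993), A9-A12 (0.0959), G1-A5 (0.0739) or A6-C9 (0.0980), and held without C10 (0.0465) or H9-A4 (0.00352). In DIP2C-/- clones against parental 0 of 41 passed in edgeR, where 0.00644% of all genes fell and 0.0% rose, and in DIP2C+/- clones 0 of 41, where 0.0966% fell and 0.0% rose. At an unadjusted p under 0.05 these contrasts had 12 genes lower and 2 higher of 41, and 22 lower and 1 higher, respectively, where 1970 and 1796 of all 15532 genes reached it in either direction. DESeq2's Wald test called 3 of the 41 lower and 1 higher in DIP2C-/- (1.23% and 0.682% of all genes), 4 lower and 0 higher in DIP2C+/- (0.599% and 0.644%), and 5 lower and 0 higher in the average of all clones (0.946% and 1.01%). The 3 contrasts share the parental samples and are therefore not independent of each other.

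The median log2 fold change of the 41 genes was -0.34 in DIP2C-/-, -0.41 in DIP2C+/- and -0.40 in the average of all clones, where the medians over all tested genes were 0.02, 0.02 and 0.02. In each contrast 38 of the 41 genes had a fold change under 0, against 48.2%, 47.8% and 48.2% of all genes, and the 3 above 0 were ANLN, SPC25 and BUB3. The fold changes of all clones ran from -0.97 for TOP2A to 0.39 for ANLN.

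Without H9-A4 the same tests called more genes, of this set and of the whole transcriptome. In the average of the remaining 6 clones 15 of the 41 genes fell and 0 rose, against 4.47% and 4.48% of 15390 tested genes. These were AURKA, BUB1B, CCNA2, CCNB2, CENPE, CENPF, ECT2, ESPL1, KIF11, KIF20A, KIF23, MYBL2, NUSAP1, PRC1 and TOP2A. In DIP2C-/- clones 5 fell (CENPE, ESPL1, KIF20A, MYBL2 and TOP2A, against 2.44% of all genes) and 0 rose (2.32%), and in the 4 remaining DIP2C+/- clones 15 fell (3.58%) and 0 rose (4.37%). All 5 of the genes that fell in DIP2C-/- were among the 15 of DIP2C+/-, which held NUF2 and not KIF11. H9-A4 was singled out on these libraries, so its omission is no independent test, and over the whole transcriptome its omission raised the number of calls in both directions.

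**Figure D3:**
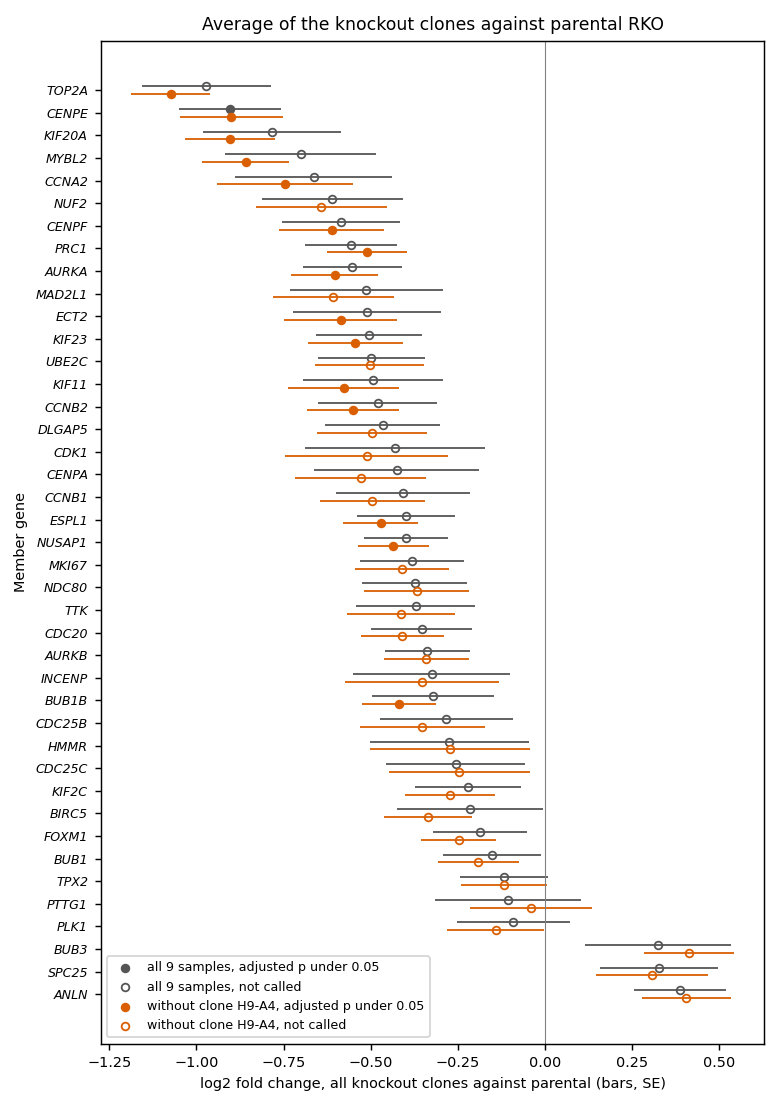
Log2 fold change of the average of the knockout clones against parental RKO (horizontal axis, bars are SE) for the 41 genes (vertical axis), with all 9 samples (grey) and without H9-A4 (orange); filled points passed an adjusted p under 0.05. With all samples CENPE alone is filled at -0.90, without H9-A4 15 points are filled, and ANLN, SPC25 and BUB3 lie right of 0 in both.

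In the values by sample that follow, clones stand in the order E3 and C10 for DIP2C-/-, and F6-A7 and H9-A4, then A9-A12, followed by G1-A5 and A6-C9 for DIP2C+/-. Gene positions are those of the GENCODE annotation on GRCh37, the build the reads were aligned to, and values are counts over exons of the whole gene. Fold changes without a further remark are those of all clones against parental with all 9 samples, and did not pass the edgeR test unless it is said that the gene rose or fell.

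Among the cyclins and the enzymes that control CDK1, all 6 genes had a fold change under 0, with a median of -0.42, and CCNA2 and CCNB2 fell without H9-A4. CDK1 (chromosome 10, 62538089 to 62554610, plus strand), the kinase that drives entry into mitosis, was at 136 and 92.3 CPM in the parental samples, 87.2 and 73.8 CPM in DIP2C-/- and 60.6, 113, 84.4, 114 and 60.9 CPM in DIP2C+/- clones. The parental samples differed as much as many clones did, and H9-A4 and G1-A5 lay between them (log2 fold change -0.43 ± 0.26 SE). CCNB1 (chromosome 5, 68462962 to 68474072, plus strand), which encodes the cyclin B1 that activates CDK1, was at 370 and 343 CPM in the parental samples, 279 and 225 CPM in DIP2C-/- and 223, 366, 244, 316 and 229.5 CPM in DIP2C+/- clones. Every clone but H9-A4 was below both parental samples, and the group means were 357 ± 18.7 (SD, n = 2), 252 ± 38.3 (n = 2) and 276 ± 62.8 CPM (n = 5). CCNA2, encoding cyclin A2, was at 141 to 165 CPM in the parental samples and 70.1 to 128 CPM in the clones, with no overlap, and CCNB2 at 106 to 111 and 59.0 to 99.1 CPM. CDC25C, a phosphatase that activates CDK1, was at 12.1 to 15.1 CPM in the clones and at 12.2 and 19.0 CPM in the parental samples. For CDC25B, another CDK1 phosphatase, the clones (48.5 to 86.8 CPM) spanned the parental values of 76.5 and 85.4 CPM. The mean difference of these 6 genes in log2 CPM was -0.66 in F6-A7 and in A6-C9, -0.19 in G1-A5 and -0.08 in H9-A4.

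The 3 mitotic kinases differed from one another. AURKA (chromosome 20, 54944445 to 54967393, minus strand), the Aurora kinase of centrosomes and spindle poles, was at 125 and 131 CPM in the parental samples, 88.4 and 79.4 CPM in DIP2C-/- and 70.6, 105, 91.3, 89.4 and 85.2 CPM in DIP2C+/- clones. AURKB (chromosome 17, 8108051 to 8113918, minus strand), the kinase of the chromosomal passenger complex, was at 109 and 132 CPM in the parental samples, 91.5 and 94.8 CPM in DIP2C-/- and 102, 96.1, 102, 86.4 and 94.2 CPM in DIP2C+/- clones. Both had all 7 clones below both parental samples, and AURKA fell without H9-A4 (log2 fold change -0.60 ± 0.13 SE, adjusted p = 0.0128, edgeR) while AURKB did not pass (-0.34 ± 0.12). PLK1 (chromosome 16, 23688977 to 23701688, plus strand), Polo-like kinase 1, which acts from mitotic entry to cytokinesis, was at 258 and 266 CPM in the parental samples, 265 and 212 CPM in DIP2C-/- and 284, 298, 225, 212 and 226 CPM in DIP2C+/- clones. For PLK1 the clones lay on both sides of the parental samples, with 2 above, 4 below and 1 between them, and its fold change of -0.09 ± 0.16 (SE) was the smallest of the set. PLK1 has a CHR element and a CCAAT box in the window printed above, as PRC1 and TOP2A do.

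Of the 5 spindle assembly checkpoint genes, TTK had every clone below both parental samples, and BUB3 was among the 3 genes of the set with a fold change above 0. BUB1 (chromosome 2, 111395105 to 111435640, minus strand), a checkpoint kinase of the kinetochore, was at 212 and 188 CPM in the parental samples, 212 and 185 CPM in DIP2C-/- and 163, 208, 170.2, 152 and 174 CPM in DIP2C+/- clones. The DIP2C-/- clones matched the spread of the parental samples, and the sign of their fold change (-0.01 ± 0.18 SE) was positive under 3 of the alternative settings. BUB3 (chromosome 10, 124913918 to 124929983, plus strand), its binding partner, was at 264 and 261 CPM in the parental samples, 347 and 355 CPM in DIP2C-/- and 365, 205, 307, 324 and 402 CPM in DIP2C+/- clones. Thus 6 clones were above both parental samples and H9-A4 was below both, which left a fold change of 0.32 ± 0.21 (SE, adjusted p = 0.522, edgeR). BUB1B, which encodes BubR1 of the checkpoint complex, was at 159 to 181 CPM in the 6 other clones and 254 CPM in H9-A4, against 216 and 242 CPM in the parental samples, and fell without H9-A4 (log2 fold change -0.42 ± 0.11 SE, adjusted p = 0.0327, edgeR). MAD2L1, encoding the checkpoint protein Mad2, was at 58.6 to 108 CPM in the clones and 108 and 116 CPM in the parental samples.

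Of the 4 genes for chromatid separation, ESPL1, which encodes separase, was at 193 and 189 CPM in the parental samples and 124 to 188 CPM in the clones, the highest of them H9-A4, and fell without H9-A4 (log2 fold change -0.47 ± 0.11 SE, adjusted p = 0.0194, edgeR). UBE2C, the E2 enzyme of the anaphase promoting complex, was at 63.6 and 91.4 CPM in the parental samples and 45.4 to 61.6 CPM in the clones, with no overlap. CDC20, an activator of the complex, had 6 clones below both parental samples. For PTTG1, which encodes securin, 3 clones were below and 2 above both parental samples. PTTG1 has near-identical copies in the genome whose reads the counting may have split, so its values are uncertain.

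Among the 6 centromere and kinetochore genes CENPE was the lowest and SPC25 the highest. CENPE (chromosome 4, 104026506 to 104119602, minus strand), a kinetochore motor that carries chromosomes to the metaphase plate, was at 125 and 133 CPM in the parental samples, 63.5 and 87.8 CPM in DIP2C-/- and 58.2, 68.0, 58.8, 74.1 and 71.8 CPM in DIP2C+/- clones. No clone reached either parental sample, H9-A4 lay among the other DIP2C+/- clones, and the group means were 129 ± 5.77 (SD, n = 2), 75.7 ± 17.2 (n = 2) and 66.2 ± 7.35 CPM (n = 5). CENPE was one of the 3 genes with no CHR element or CCAAT box in its window. SPC25 (chromosome 2, 169690642 to 169769881, minus strand), a subunit of the NDC80 complex that binds microtubules, was at 31.1 and 31.2 CPM in the parental samples, 47.8 and 42.1 CPM in DIP2C-/- and 29.6, 41.96, 36.3, 34.1 and 42.7 CPM in DIP2C+/- clones. All clones but F6-A7 were above both parental samples (log2 fold change 0.33 ± 0.17 SE). The other subunits of that complex in the set went the other way, with NDC80 at 40.3 and 43.0 CPM in the parental samples and 27.5 to 36.5 CPM in the clones, and NUF2 at 46.3 and 47.2 against 18.5 to 42.1 CPM, both with no overlap. CENPF, a large kinetochore protein, was at 395.5 and 517 CPM in the parental samples and 231 to 409 CPM in the clones and fell without H9-A4 (log2 fold change -0.61 ± 0.15 SE, adjusted p = 0.0277, edgeR). CENPA, the histone H3 variant of centromeres, was at 18.1 and 19.3 CPM in the parental samples, 19.5 CPM in H9-A4 and 10.6 to 15.5 CPM in the other clones.

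The 6 spindle genes had fold changes from -0.49 for KIF11, the motor that separates spindle poles, to -0.12 for TPX2, an activator of AURKA. NUSAP1, a microtubule-binding protein, and DLGAP5 had every clone below both parental samples, and KIF11 and NUSAP1 fell without H9-A4 (log2 fold change -0.58 ± 0.16 and -0.44 ± 0.10 SE, adjusted p = 0.0474 and 0.0230, edgeR). TPX2 was at 280.0 to 357 CPM in the clones and 338 and 387 CPM in the parental samples, and KIF2C, a microtubule depolymerase, at 131 to 199.9 and at 179 and 206 CPM, so both overlapped. HMMR, a microtubule-associated protein, was the lowest gene of the set, at 8.43 and 10.2 CPM in the parental samples and 6.26 to 8.97 CPM in the clones. Of the chromosomal passenger complex beside AURKB, INCENP was at 103 and 142 CPM in the parental samples and 63.9 to 123 CPM in the clones, and BIRC5, which encodes survivin, at 196 and 219 CPM, 264 CPM in H9-A4 and 136 to 185 CPM in the other clones. BIRC5 overlaps an antisense gene and the strandedness of the libraries is not stated, so reads of the 2 genes cannot be told apart.

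Of the 5 genes of the central spindle and cytokinesis, 4 had every clone below both parental samples, against 5.54% of all tested genes. The fifth, ANLN, had every clone above both, against 5.41%. KIF20A (chromosome 5, 137514408 to 137523412, plus strand), a kinesin of the central spindle, was at 101 and 127 CPM in the parental samples, 61.0 and 59.3 CPM in DIP2C-/- and 61.8, 99.1, 57.3, 69.3 and 56.6 CPM in DIP2C+/- clones. H9-A4 lay just under the lower parental sample and the other clones at 56.6 to 69.3 CPM, and KIF20A fell without H9-A4 (log2 fold change -0.90 ± 0.13 SE, adjusted p = 0.00156, edgeR). ANLN (chromosome 7, 36429430 to 36493400, plus strand), which encodes the actin-binding scaffold anillin of the cleavage furrow, was at 293 and 244 CPM in the parental samples, 394 and 415 CPM in DIP2C-/- and 293.0, 326, 344, 334 and 360.2 CPM in DIP2C+/- clones. F6-A7 exceeded the higher parental sample by less than 1 CPM and the DIP2C-/- clones were the highest, with group means of 268 ± 34.9 (SD, n = 2), 405 ± 15.1 (n = 2) and 331 ± 25.0 CPM (n = 5). The fold change of ANLN was 0.39 ± 0.13 (SE, adjusted p = 0.307, edgeR), and in a fit of the parental and DIP2C-/- samples alone it rose (0.58, adjusted p = 0.0269), as did SPC25 (0.52, adjusted p = 0.0493). That fit of 4 samples called 12 of the 41 genes lower and 2 higher, against 6.82% and 5.74% of all genes tested in it. PRC1, which bundles the microtubules of the central spindle, was at 165 and 179 CPM in the parental samples and 94.5 to 132 CPM in the clones, and here H9-A4 was the lowest. KIF23, a subunit of centralspindlin, was at 101 and 111 CPM in the parental samples and 58.0 to 86.2 CPM in the clones. ECT2, the activator of RhoA at the furrow, was at 148.2 and 184.5 CPM in the parental samples and 74.9 to 148.1 CPM in the clones.

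TOP2A (chromosome 17, 38544777 to 38574148, minus strand), the DNA topoisomerase that untangles sister chromatids, had the lowest fold change of the set. It was at 439 and 422 CPM in the parental samples, 225 and 229 CPM in DIP2C-/- and 175, 307, 184, 222 and 195 CPM in DIP2C+/- clones. All clones were lower, with H9-A4 between the parental samples and the rest, and the group means were 430.4 ± 12.1 (SD, n = 2), 227 ± 2.80 (n = 2) and 217 ± 53.4 CPM (n = 5). The log2 fold change was -0.97 ± 0.18 (SE, adjusted p = 0.105, edgeR), and without H9-A4 TOP2A fell by 1.07 ± 0.11 (adjusted p = 0.000188). MKI67 (chromosome 10, 129894923 to 129924687, minus strand), which encodes the proliferation marker Ki-67, was at 817 and 1019.8 CPM in the parental samples, 719.9 and 827 CPM in DIP2C-/- and 605, 788, 718, 576 and 712 CPM in DIP2C+/- clones. C10 lay between the parental samples and the other 6 clones under both (log2 fold change -0.38 ± 0.15 SE, adjusted p = 0.327, edgeR).

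In both transcription factors of the set H9-A4 lay apart from the other clones. MYBL2 (chromosome 20, 42295659 to 42345135, plus strand), which encodes B-Myb, was at 153 and 137 CPM in the parental samples, 68.1 and 68.8 CPM in DIP2C-/- and 77.3, 150.5, 101, 88.4 and 79.3 CPM in DIP2C+/- clones. H9-A4 lay between the parental samples and the other 6 clones were below both, the DIP2C-/- clones lowest. Without H9-A4 MYBL2 fell by 0.86 ± 0.13 on the log2 scale (SE, adjusted p = 0.00180, edgeR). FOXM1 (chromosome 12, 2966846 to 2986340, minus strand), a forkhead factor that activates many genes of the set, was at 333 and 311 CPM in the parental samples, 248 and 251 CPM in DIP2C-/- and 296, 357, 298, 263 and 275 CPM in DIP2C+/- clones. H9-A4 was above both parental samples and the other clones below both, with a fold change of -0.19 ± 0.13 (SE, adjusted p = 0.569, edgeR).

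**Figure D4:**
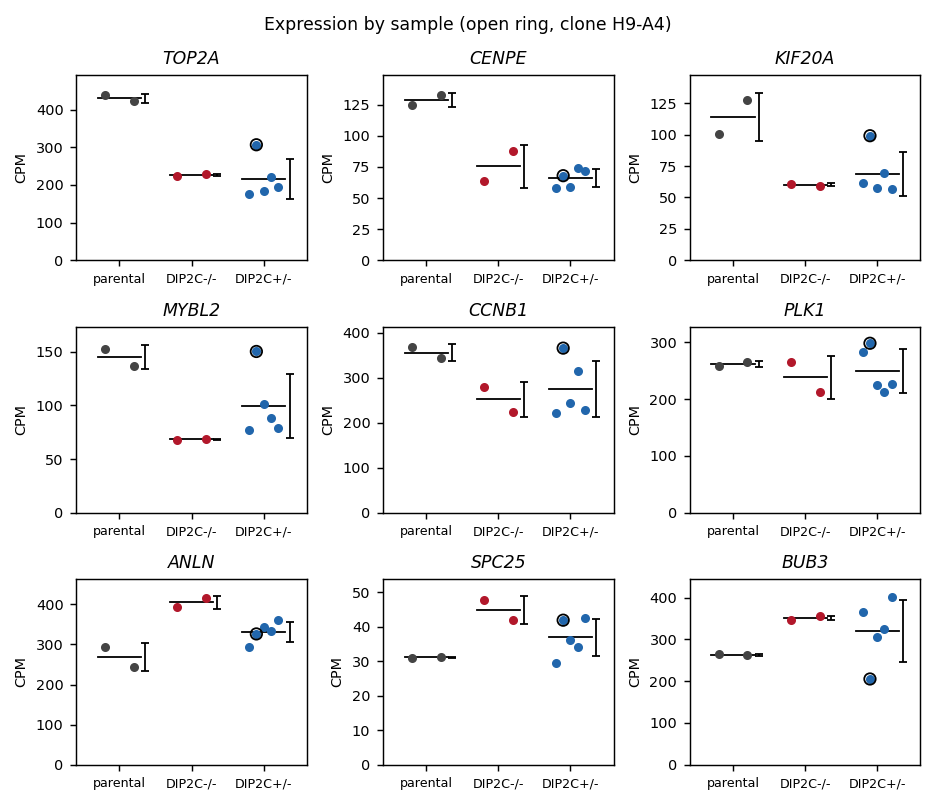
CPM (vertical axis, from 0) of 9 of the genes in parental, DIP2C-/- and DIP2C+/- samples (horizontal axis); points are samples, horizontal lines group means, bars beside them the SD (n = 2, 2 and 5), and the open ring marks H9-A4. In TOP2A and CENPE all clones are under both parental samples, in MYBL2 and CCNB1 H9-A4 lies with the parental samples, and in ANLN all clones are above them.

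DIP2C+/- clones did not differ detectably from DIP2C-/- clones in any of the 41 genes. The contrast of DIP2C+/- against DIP2C-/- called 0 of 41 in edgeR, where 0.0% of all genes passed in either direction, with 865 genes at an unadjusted p under 0.05 and 6 genes of the transcriptome (0.0386%) called higher by DESeq2. The median log2 difference was -0.07, against 0.01 over all genes, and 24 of 41 genes were under 0, against 48.6% of all genes. The differences with the lowest unadjusted p were CENPF (-0.45, DIP2C+/- minus DIP2C-/-), MYBL2 (0.54) and ANLN (-0.29), each with an adjusted p of 0.878 in edgeR. With 2 and 5 clones this does not show that the genotypes were alike.

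Compared with each other per length of exon, the genes of the set covered a wide range in parental RKO. In RPKM, that is CPM per kilobase of exon, the levels were highest for CCNB1 at 147 ± 7.68 (SD, n = 2), CDC20 at 131 ± 14.4 and TPX2 at 101 ± 9.56, followed by MKI67 at 71.5 ± 11.2 and TOP2A at 67.5 ± 1.89. CCNB1 and CDC20 lay within the sum of their spreads, as did MKI67 and TOP2A. The lowest levels were those of TTK at 7.41 ± 0.32, CDC25C at 4.68 ± 1.45 and HMMR at 2.37 ± 0.33 RPKM. Exon lengths are those of the union of annotated exons and are larger than the transcripts in use, so the levels are approximate.

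A further 70 genes of mitosis outside the set, listed with earlier results of these data known, showed differences of the same sign. Their median log2 fold change of all clones against parental was -0.28, with 60 of 70 under 0 and 22 of 70 with every clone below both parental samples (31.4%, where the 41 genes had 41.5% and all genes 5.54%). In DIP2C-/- their median was -0.33, where that of the 41 genes was -0.34, and the difference between the lists was not tested. With all samples 0 of the 70 passed in edgeR, and without H9-A4 19 fell and 0 rose, against 4.47% and 4.48% of all genes. Among these were CDCA2, a regulatory subunit of protein phosphatase 1 on chromatin (log2 fold change -1.10 ± 0.15 SE), CKAP2L, a spindle protein (-1.12 ± 0.18), SPAG5, a spindle and kinetochore protein (-0.76 ± 0.11), and CKS1B, a small subunit of CDK complexes (-0.87 ± 0.15), with edgeR adjusted p of 0.00111, 0.00285, 0.00191 and 0.00376.

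For 42 genes of DNA replication and S phase the median was -0.13, with 34 of 42 under 0 but 2 of 42 with every clone below both parental samples (4.76%, where all genes had 5.54%). Without H9-A4 the count was 14 of 42 (33.3%, where all genes had 11.5%), and for both DIP2C-/- clones it was 25 of 42 (59.5%, where all genes had 26.3%). Here H9-A4 had a median difference in log2 CPM of 0.10 and the other clones -0.13 to -0.22. Without H9-A4, 4 of the 42 fell and 0 rose, against the same 4.47% and 4.48% of all genes, namely CHAF1B, a chromatin assembly factor subunit, MCM10 and ORC1, which act at replication origins, and POLA1, the catalytic subunit of DNA polymerase alpha. With all samples 0 of the 42 passed in edgeR.

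**Figure D5:**
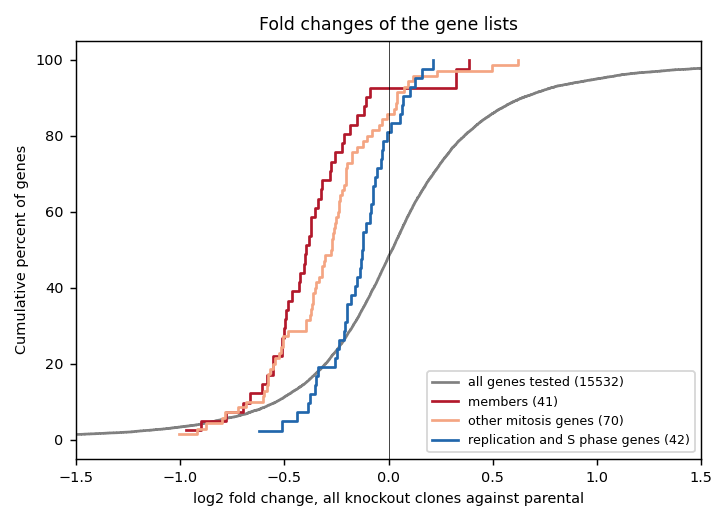
Cumulative percent of genes (vertical axis) against the log2 fold change of all knockout clones against parental RKO (horizontal axis) for the 41 genes, 70 other mitosis genes, 42 replication and S phase genes and all 15532 tested genes. The curve of the 41 genes has its median at -0.40, that of the other mitosis genes at -0.28 and that of the S phase genes at -0.13.

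Of 15 genes of the DREAM and MuvB complexes and of their upstream regulators, 7 had a fold change under 0 and the median was 0.01. With all samples 0 of the 15 passed in edgeR. Without H9-A4 CDKN1A and CDKN2A rose and 0 fell, where 4.48% of all genes rose and 4.47% fell. CDKN1A, which encodes the CDK inhibitor p21, was at 96.2 and 94.2 CPM in the parental samples, 223 and 277 CPM in DIP2C-/- and 265, 60.2, 366, 414 and 333 CPM in DIP2C+/- clones. CDKN2A, whose products include the CDK inhibitor p16, was at 1.21 and 1.67 CPM in the parental samples, 14.8 and 24.9 CPM in DIP2C-/- and 18.8, 0.11, 13.2, 23.7 and 19.2 CPM in DIP2C+/- clones. In both genes H9-A4 was below the parental samples and the other 6 clones were above them, and for CDKN2A its value was under the floor of 3 counts (0.17 CPM). The log2 fold changes without H9-A4 were 1.70 ± 0.18 and 3.72 ± 0.35 (SE, adjusted p = 0.000193 and 7.91e-05, edgeR). H9-A4, in which these inhibitors were lowest, was also the clone in which the mitosis genes were closest to parental RKO, an observation on a single clone. Among the other 6 clones the mean difference of the mitosis genes was -0.32 in E3, with the lowest CDKN1A, and -0.37 in G1-A5, with the highest. It was -0.50 in A9-A12, with the lowest CDKN2A, and -0.36 in C10, with the highest. The part of the inhibitors in the levels of the mitosis genes was not tested.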

How the data were processed

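RNA of parental RKO cells and knockout clones was sequenced by the authors on the Ion Proton system, aligned to hg19 with TopHat2 2.0.4 and quantified with Cufflinks (2.2.1 in the submitters' processing notes). The authors deposited estimated counts, near-multiples of 1 step of 0.711 to 1.11 per sample, and how they were scaled is not stated. They were rounded to whole numbers, although the design had assumed whole counts, and scaling makes a count test see more or fewer reads than were sequenced. Groups were taken from the labels.

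Genes were kept by filterByExpr (15532 of 23619), normalized by TMM and fitted with 1 coefficient per group over all 9 samples in edgeR 4.0.16 (R 4.3.3). Quasi-likelihood F tests were called at a Benjamini-Hochberg adjusted p under 0.05. The average of the clones weighted each equally. Single clones were compared on log2 CPM (prior count 2) without a test. Alternatives were DESeq2 1.42.0, other filters and scalings, and fits of fewer samples. The members and lists were chosen with earlier results of these data known. Values in every sample are given for called members, the 4 with the highest and the 4 with the lowest mean difference, and 10 listed members.

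Between samples of 1 group the chi-square per degree of freedom was 20.7 to 137, above sampling noise, so each was counted as 1 replicate. The floor of 3 counts is 0.148 to 0.194 CPM and covers counting error only. The labels give no batch and do not say whether the parental samples were separate cultures, so p-values measure the spread between these samples, which may be technical. The scripts were tested on simulated data, with changes larger than those of the members and shared by all clones. The simulated spread between samples was smaller than in these data and no clone was set apart. That test therefore does not show how well changes like those of the members are found here.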

Additional observations from a re-analysis of the deposited data

Results flagged for a closer look

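In the 5 DIP2C+/- clones the highest or lowest value of 2 of the 41 genes lay far from the rest by Dixon's criterion (gap over range above 0.71), and in both it was H9-A4. For BUB1B H9-A4 was at 253.7 CPM (gap over range 0.857), and for NUSAP1 at 159.3 CPM (0.902). Chance alone gives such a gap in about 1 in 20 groups, and 41 genes were tested. The mean difference over the 41 genes had a gap over range of 0.606 in H9-A4.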

How the results depend on the processing

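No paired analysis was possible because only the parental samples carry numbers in the labels and the clones carry names. The number of the 41 genes called depended on the samples and the tool. In DIP2C-/- it was 0 with all samples, 14 in a fit of the compared groups alone, 4 without H9-A4 and A6-C9, 4 with DESeq2 and 0 to 5 when 1 sample was left out, with 5 without H9-A4. In DIP2C+/- it was 0, and 1 with scaling by library size, 1 with at least 10 counts in every sample, 11 without H9-A4 and A6-C9, 4 with DESeq2 and 0 to 15 when 1 sample was left out, with 15 without H9-A4. In the average of all clones it was 1, and 0 without a filter on low counts, 0 with the values divided by the step, 10 without H9-A4 and A6-C9, 5 with DESeq2 and 0 to 15 when 1 sample was left out, with 15 without H9-A4. Fits that leave 1 parental or 1 DIP2C-/- sample assume that it varied as the other groups did. The median of the 41 genes in DIP2C-/- was -0.37 without a filter, -0.32 with at least 10 counts and -0.39 to -0.34 when 1 sample was left out. With scaling by library size only, the mean difference was -0.27 in E3 and -0.39 in C10. The fold change of BUB1 in DIP2C-/- turned to 0.0056 with at least 10 counts, 0.0584 without parental sample 1 and 0.0385 without C10, in a range of -0.1112 to 0.0584 when 1 sample was left out. The medians of the 41 genes were under 0 in all 3 contrasts with parental under every alternative run, and the cause of these changes was not tested.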
